A study of Mus musculus with 12 samples.

Results

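The short-tailed transcripts of undifferentiated P19 cells were 24 annotated transcripts (contigs) of 2149 that had at least 100 reads over the 3 D0 libraries, and of 34244 with any read kept. A transcript was a member when the median poly(A) tail of its pooled D0 reads was 80 nt or shorter, after mitochondrial transcripts and pseudogenes were set aside, so the members were chosen by their D0 tails, which are given as a description. P19 is a mouse embryonal carcinoma line. All cells were of WT genotype. D0 cells were undifferentiated and were kept in serum-containing medium, whereas D2, D4 and D6 cells had spent 2, 4 and 6 days in NDiff 227 medium with retinoic acid. Each day had 3 biological replicates, numbered 1 to 3, and each was sequenced as 1 direct RNA library. Medium and retinoic acid changed together, and each sequencing run held a single day, so that day, medium and run cannot be told apart.

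A poly(A) tail is a stretch of adenosines added to the 3′ end of most mRNAs after cleavage. It binds poly(A)-binding proteins, is shortened by deadenylases as an mRNA ages, and takes part in translation and decay. Stable and highly translated mRNAs often carry rather short tails, and a very short tail is also a stage that precedes decay. In nanopore direct RNA sequencing, the native RNA molecule is read from its tail inwards, and a single read yields the identity of the transcript together with an estimate of its tail length.

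The 24 contigs belonged to 23 genes, because Hspa8 contributed 2. Named by function, they comprised chaperones (Hspa8, the constitutive cytosolic HSP70, and Dnajc2, a ribosome-associated J-domain protein), a cyclophilin of the endoplasmic reticulum (Ppib) and cytoskeletal genes (Vim, an intermediate filament protein, and Tbcb, a tubulin-folding cofactor). Further members encoded signalling or cell cycle proteins (Map2k2, which is the kinase MEK2, Ccnd3, which is cyclin D3, and Rnd2), a proteasome subunit (Psmb7), an ESCRT-II subunit (Snf8), the mitochondrial ADP/ATP carrier Slc25a5, the nucleolar protein Nol12, the RNA-binding protein Serbp1 and the ribosomal proteins Rpl7a and Rpl24. Cnih4, Tmem160, Cfap36, Nudt14 and the predicted genes Gm10260, Gm12184, Gm3839 and Gm20594 completed the group.

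The members differed in the sequence at which their reads ended, and the last 30 bases before the commonest read end are shown for those on which the results turn. Sequences were read from GENCODE vM21 transcripts on the mm10 build, 5′ to 3′ on the transcript strand. Capitals mark the letters AATAAA or ATTAAA, the usual polyadenylation signals, wherever they occur in the window. The upper set holds members with a usual signal, then members without one, and the last 3 pairs set a predicted gene beside its closest relative among transcripts with 100 D0 reads.
Vim: acttgttactgcttcAATAAAtcttcaaaa
Hspa8 (both contigs): ggaatAATAAAactatttaaattggcacca
Slc25a5: aaattgaagaAATAAAaatacccaaaacca
Snf8: aaacctggacaactttgtttataaaaaaaa
Nudt14: tggtgtctgtctgataagacagataatgtc
Gm20594: tgaaatataataataagacgagaagaccct
Gm10260: aatagtttatatacctatggaaaaaaaaaa
Rps18: gctgttAATAAAtagtttatatacctatga
Gm12184: taaagcttattttcATTAAAaaaaaaaaaa
Cdk2ap1: acttgatgtAATAAAgcttattttcattaa
Gm3839: gttcgctgcacccaaaaaaaaaaaaaaaaa
Gapdh: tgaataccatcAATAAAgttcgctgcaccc

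These windows lie at chr2:13582793-13582822 (plus strand) for Vim, chr9:40805171-40805200 (plus) for Hspa8, chrX:36798778-36798807 (plus) for Slc25a5, chr11:96047386-96047415 (plus) for Snf8, chr12:112934323-112934352 (minus) for Nudt14 and chr6:79818318-79818347 (plus) for Gm20594. Those of the pairs lie at chr13:97760076-97760105 (minus) for Gm10260, chr17:33951999-33952028 (minus) for Rps18, chr11:48825346-48825375 (minus) for Gm12184, chr5:124345439-124345468 (minus) for Cdk2ap1, chr14:11280735-11280764 (minus) for Gm3839 and chr6:125161854-125161883 (minus) for Gapdh. The commonest read end lay in the annotated 3′ UTR for 20 of the 24 members, in the coding region for 1 (Gm20594) and in a transcript without an annotated coding region for 3 (Rnd2, Rpl7a and Rpl24). AATAAA or ATTAAA, searched on the transcript strand, occurred in 14 of the 24 windows (58.3%), against 1776 of 2103 windows of the other contigs with 100 D0 reads (84.5%). A run of 8 or more A occurred in 4 member windows (16.7%) and in 52 of the others (2.47%). In each of the 3 predicted genes paired here, the window repeats the end of its relative and goes on into A. Gm12184 and Cdk2ap1 share 19 bases, after which Gm12184 has 11 bases that are all A, and the ATTAAA marked in Gm12184 spans the last shared bases and the first A after them. Gm10260 and Rps18 share 19 bases, followed in Gm10260 by 11 bases of which 10 are A. Gm3839 and Gapdh share 13 bases, followed by 17 A.

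The libraries held 120326 reads (D2 replicate 1) to 613756 (D0 replicate 2), and their labels were checked first. Reads of the pluripotency gene Pou5f1, summed over its contigs, differed from D0 by log2 fold changes of -7.79 at D2, -10.24 at D4 and -9.77 at D6. The neuronal tubulin gene Tubb3 had log2 fold changes of -1.08 at D2 and 2.66 at D6, and those of Actb lay between -0.40 and 0.28. Neuronal markers summed to 758 to 819 RPM (reads scaled to library size) at D0 and 5341 to 5735 at D6, glial markers to 69.4 to 105 and 612 to 693, and endoderm and mesoderm markers to at most 35.6 on any day. The libraries are bulk samples, so that fewer cells of a type and less RNA per cell cannot be told apart.

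At D0 the member medians ran from 32.2 to 79.9 nt, and the median of the medians over all 2149 contigs was 103.8 nt. In 7 members each of the 3 D0 libraries had a median of 80 nt or less, in 12 members 2 libraries did and in 5 only 1. The exact 95% order-statistic interval of the pooled D0 median lay at or under 80 nt for 6 members. Just inside the limit stood Ppib at 79.9 nt, Ccnd3 at 79.8 nt and Tmem160 at 79.4 nt. Just outside it stood Mpnd, Dynlt1f and Slc16a3 at 80.1, 80.1 and 80.2 nt. Reads of 30 to 90 nt made up 55.2% of a member's D0 reads at the median and 37.5% in the other contigs. Reads under 30 nt made up 5.91% and 2.30%, respectively.

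**Figure D1:**
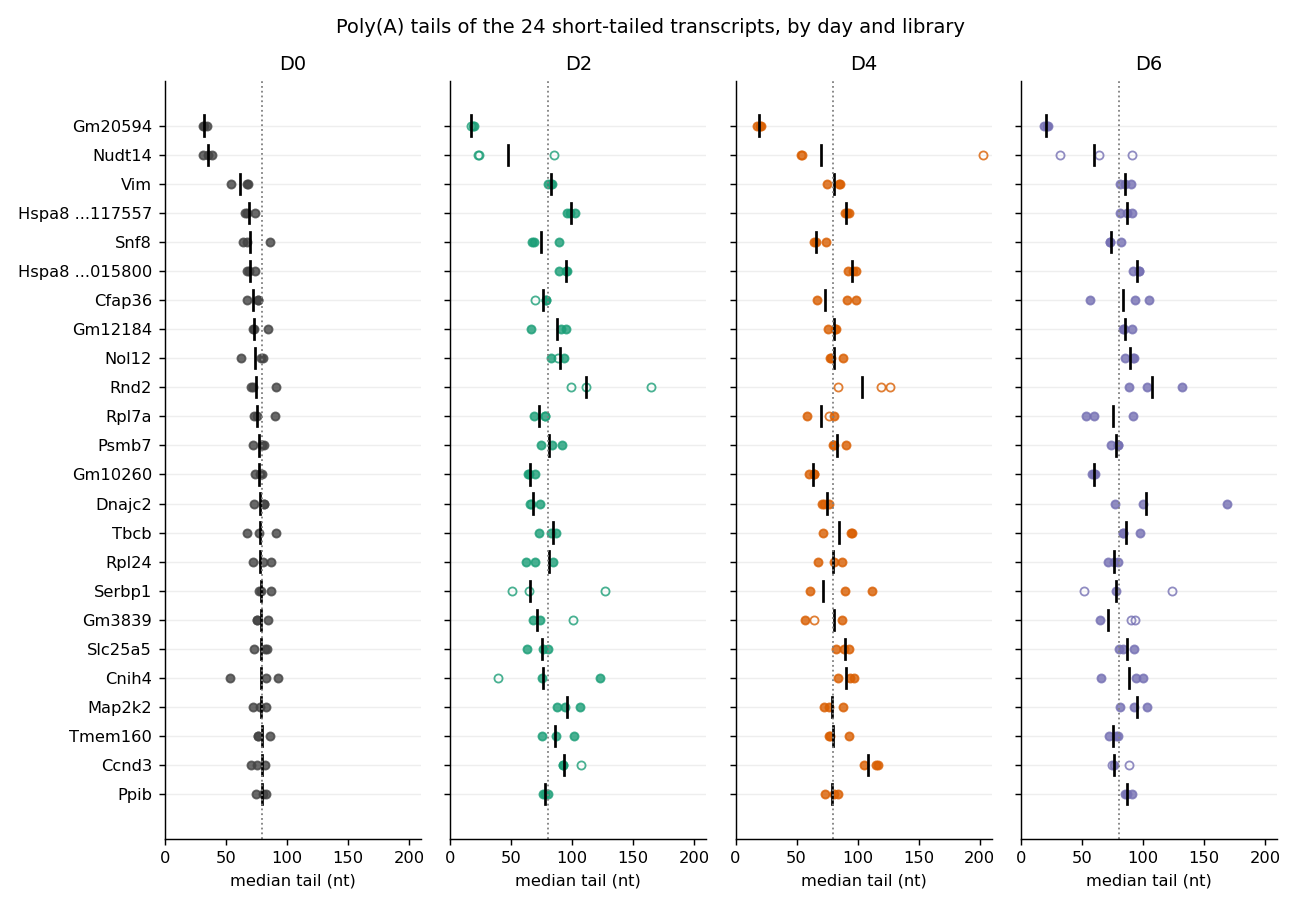
Median poly(A) tail (nt, horizontal axis) of each of the 24 members in each library, with 1 panel per day. Points are library medians (open where a library had fewer than 10 reads), bars the median of all reads of that day, and the dotted line marks 80 nt. At D0 the bars, but not all library points, lie at or left of the line by choice, and on each later day the points of both Hspa8 contigs and Vim lie right of their D0 points, whereas those of Gm10260 and Gm20594 lie left of theirs.

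Hspa8, the constitutive HSP70 that folds nascent proteins, gave the most reads of the chaperone members. Contig ENSMUST00000015800, with 2214 D0 reads, had D0 tails of 68.7, 67.7 and 74.2 nt in replicates 1, 2 and 3. Its tails were 89.1, 95.9 and 95.3 nt at D2, 95.9, 92.3 and 98.6 nt at D4 and 96.8, 92.2 and 96.8 nt at D6. Each of the 9 later libraries was above each of the D0 libraries. Contig ENSMUST00000117557, with 924 D0 reads, ends at the same base and shares 99.1% of its 21-base words with the first. It had 66.0, 67.4 and 74.3 nt at D0, 98.2, 102.0 and 96.1 nt at D2, 91.1, 89.8 and 92.8 nt at D4 and 81.2, 86.9 and 91.1 nt at D6, again without overlap with D0. Every D0 read of this second contig had mapping quality 0, meaning that it aligned equally well elsewhere, so the split of reads between the contigs is uncertain.

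Dnajc2, which helps HSP70 at the ribosome, had a pooled median of 77.7 nt at D0 and 67.9, 75.3 and 102 nt at D2, D4 and D6. Its D6 libraries were far apart at 169, 77.4 and 100 nt with 12, 38 and 22 reads. Ppib, a prolyl isomerase of the secretory pathway, had 74.5, 80.6 and 83.0 nt in the D0 libraries and 86.7, 85.0 and 90.7 nt at D6, the latter all above D0. Its pooled medians at D2 and D4 were 77.4 and 78.6 nt.

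The list of chaperones and folding factors, which includes some of mitochondria and the secretory pathway, held 36 contigs with 100 D0 reads, and 4 of them (11.1%) were members, namely both Hspa8 contigs, Dnajc2 and Ppib. Over all contigs the members made up 1.12%, and cytosolic ribosomal proteins held 2 members among 163 (1.23%). Tails, taken as the mean of the library medians, were longer than at D0 in 18, 19 and 27 of the 36 chaperone contigs at D2, D4 and D6, with a median difference of -0.23, 1.09 and 8.01 nt. The same difference over all contigs with 100 D0 reads was -3.89, -2.37 and 1.05 nt. Dnaja1, a J-domain partner of HSP70, had 86.5 nt at D0 and 106, 105 and 112 nt later, and Dnaja2 had 89.1 nt and then 107, 102 and 109 nt. Both stood outside the 80-nt limit, yet their later tails exceeded D0 by more than the median of the list on each day. Others on the list went the other way. Cct5 had 88.2 nt at D0 and 81.4, 83.6 and 86.3 nt later, and Cct4 had 93.2 nt and then 85.3, 86.9 and 86.9 nt.

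Vim, whose protein forms the intermediate filaments of neural progenitors and mesenchymal cells, had D0 tails of 67.0, 53.9 and 68.6 nt over 537 reads. They were 83.6, 82.5 and 80.05 nt at D2, 85.5, 75.3 and 85.1 nt at D4 and 85.0, 81.3 and 89.97 nt at D6. No later library overlapped D0. Tbcb, which helps to assemble tubulin dimers, had pooled medians of 77.8 nt at D0 and 84.2, 84.8 and 85.9 nt afterwards, with libraries that overlapped D0 on each day. Cfap36, named for cilia and flagella, had 72.4 nt at D0 and 76.2, 73.4 and 83.9 nt.

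Among signalling and cell cycle members, the Rnd2 contig rested on 118 D0 reads with a median of 74.8 nt, and the main Rnd2 contig had 369 reads and 82.4 nt. Its D0 libraries had 72.2, 70.8 and 90.8 nt, those of D2 99.4, 111 and 165 nt, those of D4 84.0, 119 and 126 nt and those of D6 88.5, 132 and 103 nt. Its pooled medians were 111, 104 and 107 nt at D2, D4 and D6, but each D2 and D4 library held at most 9 of its reads. Map2k2, a kinase of the ERK cascade, had 79.2 nt at D0 and 95.5, 79.0 and 95.3 nt later. Ccnd3, a partner of the G1 kinases, had 79.8 nt at D0 and 93.5, 109 and 76.0 nt later, with 6 to 21 reads per later library.

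Slc25a5, which exchanges ADP for ATP across the inner mitochondrial membrane, had 73.0, 82.4 and 83.7 nt at D0 over 1052 reads. Its tails were 63.3, 76.3 and 79.95 nt at D2, 82.3, 92.9 and 89.1 nt at D4 and 80.8, 92.4 and 84.0 nt at D6. These libraries overlapped D0 on each day. Psmb7, a catalytic proteasome subunit, had 77.0 nt at D0 and 80.8, 82.9 and 78.3 nt later. Snf8, a sorting factor of the endosomal pathway, had 64.4, 67.3 and 86.1 nt in the D0 libraries and pooled medians of 69.8 nt at D0 and 74.6, 66.3 and 73.6 nt later.

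Nol12, involved in ribosomal RNA processing, had 73.5 nt at D0 and 90.3, 80.8 and 89.1 nt later, and its reads most often ended at base 948 of a 3721-base transcript. Tmem160 had 79.4 nt at D0 and 85.6, 80.1 and 75.5 nt, and Cnih4, a cargo receptor of the early secretory pathway, had 79.1 nt and then 75.7, 90.4 and 88.6 nt.

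The 2 ribosomal members were minor contigs of genes whose main contigs had longer tails at D0. Rpl7a had 75.6 nt over 192 reads against 81.4 nt over 5344 reads of its main contig, and Rpl24 had 78.0 nt over 289 reads against 84.8 nt over 3673 reads. Their later pooled medians were 72.9, 70.3 and 75.5 nt for Rpl7a and 81.3, 80.2 and 76.5 nt for Rpl24. Means of the library medians were 79.7 nt at D0 and 74.6, 72.2 and 68.3 nt later for Rpl7a. For Rpl24 they were 79.8 nt and then 71.9, 78.6 and 75.6 nt, so its direction at D2 and D4 turned with the measure. The libraries of both overlapped D0 on each day. Both minor contigs end at the same base as the main contig, so the reads are told apart only by sequence further upstream. Serbp1, which binds ribosomes and mRNA, was likewise a minor contig with 101 reads and 78.8 nt, against 703 reads and 89.4 nt for its closest relative, and had pooled medians of 65.3, 72.0 and 77.8 nt later. The means of its library medians were 81.0 nt at D0 and 80.4, 87.4 and 84.4 nt later, so the direction at D4 and D6 turned with the measure. Its later libraries held 1 to 21 reads and ran from 50.5 to 126 nt.

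Gm10260 gave the most reads of all members, 2620 at D0, and its tails were shorter on each later day. They were 79.6, 78.0 and 73.8 nt at D0, 69.7, 64.7 and 64.0 nt at D2, 64.4, 64.5 and 60 nt at D4 and 58.0, 59.8 and 60.9 nt at D6, without overlap with D0. It shared 77.6% of its 21-base words with the ribosomal protein transcript Rps18, and 88.1% of its D0 reads had a mapping quality under 10. Over the cytosolic ribosomal protein list, the median difference from D0 was -10.3, -15.3 and -16.6 nt at D2, D4 and D6, from means of library medians. Gm10260 is not on that list, and a link between them was not tested. Gm12184, which resembles Cdk2ap1, had 73.3 nt at D0 and 87.2, 80.9 and 85.6 nt later, and Gm3839, which resembles the glycolytic gene Gapdh, had 78.8 nt and then 71.0, 80.5 and 71.5 nt. For Gm3839 the means of the library medians changed the other way, with 78.8 nt at D0 and 80.7, 69.5 and 82.9 nt later. Its libraries held as few as 4 reads and overlapped D0 on each day, so no direction is read from them.

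Gm20594 and Nudt14 had by far the shortest tails of the group. The D0 libraries of Gm20594 had 31.2, 34.5 and 32.5 nt, those of D2 16.9, 18.9 and 19.3 nt, those of D4 20.9, 17.8 and 19.9 nt and those of D6 22.2, 18.9 and 21.3 nt. No later library overlapped D0, and the share of its reads under 30 nt was 40.1% at D0 and 80%, 79.7% and 74.3% at D2, D4 and D6. Over the 12 libraries together, 10.2% of its alignments carried the PASS tag of the tail caller, against 81.7% for the median member. It shared 17.9% of its 21-base words with mt-Rnr2, the mitochondrial large ribosomal RNA, and mitochondrial mRNAs as a whole had a median tail of 63.9 nt at D0 and 58.6 to 60 nt later. Whether its reads came from the annotated locus was not tested.

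Nudt14, which hydrolyses nucleotide sugars, had 35.2, 31.0 and 38.4 nt in the D0 libraries. Of its 113 D0 reads, 85 had a mapping quality under 10 and a median tail of 31.0 nt, and the other 28 had a median of 113 nt. The aligned part of its reads was 186 bases at the median. Only 16, 19 and 15 reads remained at D2, D4 and D6, with medians of 47.7, 69.6 and 59.9 nt.

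**Figure D2:**
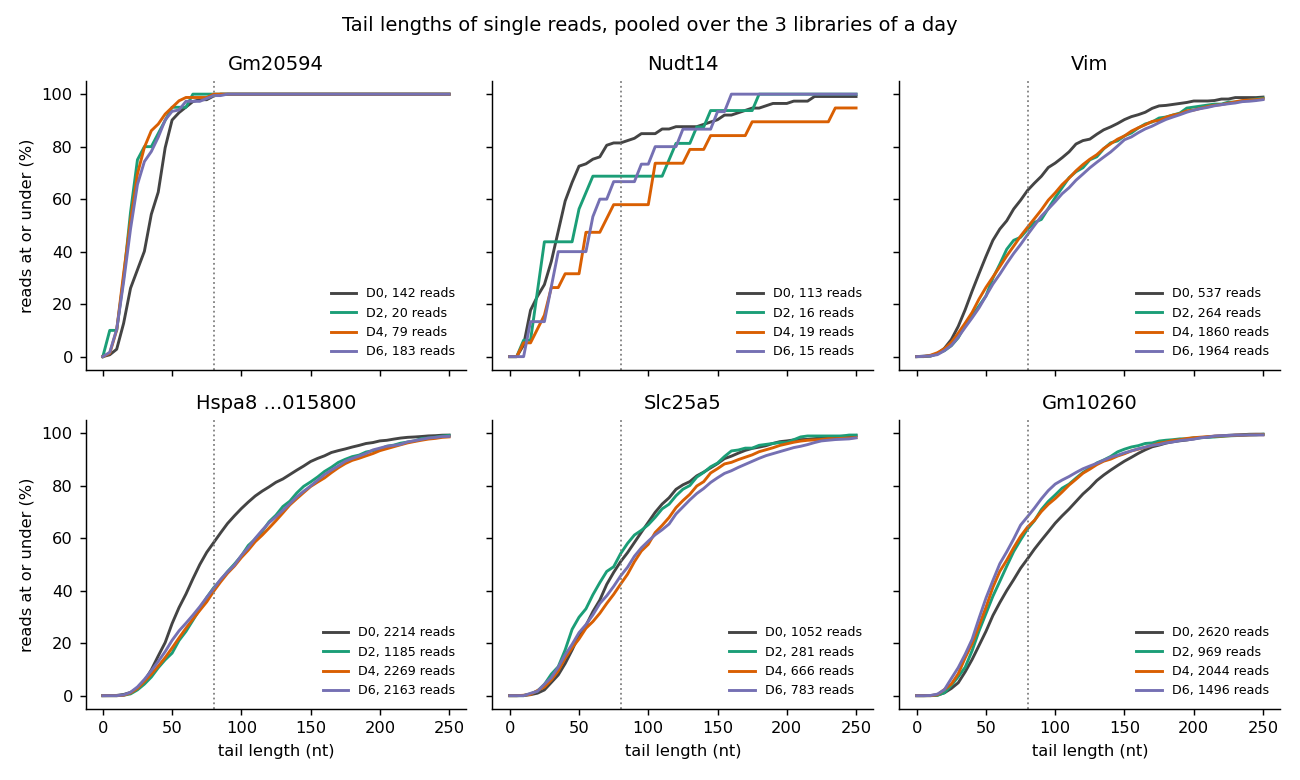
Cumulative share of reads (percent, vertical axis) against poly(A) tail length (nt, horizontal axis) for 6 members, with 1 curve per day over the pooled reads of its 3 libraries. At the 50% level the D2, D4 and D6 curves of Vim and Hspa8 (ENSMUST00000015800) stand right of the D0 curve, with pooled medians of 62.0 nt against 82.4, 80.8 and 85.0 nt for Vim, and those of Gm10260 and Gm20594 left of it, while curves cross near their ends.

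Pooled medians were longer than at D0 in 15, 16 and 16 of the 24 members at D2, D4 and D6, by a median of 4.33, 4.05 and 8.19 nt, and 10 members were longer on all 3 days. Among the other contigs with at least 10 reads, 34.2%, 40.5% and 52.6% were longer, with a median difference of -4.57, -2.37 and 0.92 nt. The 3 D2 libraries all lay above the 3 D0 libraries in 7 members, with 5 at D4 and 5 at D6, where 4.37%, 5.34% and 9.8% of all contigs did. They all lay below D0 in 2 members on each day, where 15.6%, 16.2% and 12.8% of all contigs did. Since the members were chosen for short tails at D0, the choice itself favours longer values on other days.

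The choice was therefore repeated with 2 D0 libraries, and the third, which then had no part in it, served as the D0 value. Without replicate 1 the rule chose 13 contigs, without replicate 2 20 and without replicate 3 23, and in the library left out 8, 6 and 6 of them had a median of 80 nt or less. Their median tail in that library was 76.0, 81.3 and 83.9 nt, and the median over all contigs there was 101, 104 and 106 nt. Measured from the library left out, the median difference at D6 was 9.23, 1.12 and 1.30 nt. At D2 it was 1.04, -1.27 and -7.20 nt and at D4 4.12, 0.002 and -5.88 nt, so the direction at D2 and D4 turned with the library that was left out. Vim, both Hspa8 contigs, Snf8 and Gm10260 were chosen each time, and 9 members were not chosen in any of the 3 repeats. The minimum of 100 reads was kept with 2 libraries, so 1546, 1325 and 1465 contigs qualified, against 2149 with all 3. Rarer members could thus drop out on reads and not on tails. Nudt14, with 31.0 to 38.4 nt and 34 to 43 reads per D0 library, dropped out on reads alone. Applied to other days, the same rule found 39 of 749 contigs with 100 reads at D2, 76 of 1588 at D4 and 82 of 1561 at D6. Of the members that had 100 reads on those days, 4 of 8, 3 of 12 and 5 of 13 were among them.

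Tails at D2, D4 and D6, which the rule did not use, were compared by limma on the log2 scale for the 13 members with at least 10 reads in each of the 9 libraries. No member passed an adjusted p of 0.05 for D4 against D2, D6 against D2 or D6 against D4, where 2.06%, 3.27% and 0.0% of the 1650 contigs fitted did. At an unadjusted p under 0.05 there were 1, 3 and 2 members. The lowest adjusted p was that of Slc25a5 at D4 against D2 (log2 ratio 0.26, SE 0.08, adjusted p = 0.0899), and with a replicate block it passed (0.27, SE 0.07, adjusted p = 0.0288 by limma). By size alone, the rises from D2 to D6 were led by Slc25a5 (0.22), Ppib (0.16), Tbcb (0.10) and Rpl24 (0.06), and the falls by Tmem160 (-0.22), Hspa8 ENSMUST00000117557 (-0.19), Gm10260 (-0.13) and Psmb7 (-0.09). For Hspa8 ENSMUST00000015800 the ratio of D6 to D2 was 0.01 with a standard error of 0.04 on the log2 scale. For Vim the same ratio was 0.05 with a standard error of 0.08. By pooled median, tails at D6 were longest in Rnd2, Dnajc2 and Map2k2 and shortest in Gm20594, Nudt14 and Gm10260.

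A total of 6 members could be set against their closest relative in at least 6 libraries of D2 to D6, in a two-sided exact sign-flip test whose p-values were adjusted by Benjamini-Hochberg over the 6 pairs (this comparison was chosen after the data had been seen). Gm10260 was 23.0 ± 6.31 nt shorter than Rps18 (mean ± SD over 9 libraries; mean difference -23.0 nt) and shorter in 9 of 9 libraries. Its exact p was 0.0039, the smallest that 9 libraries allow, and 0.0234 after adjustment. The test took the 9 libraries as independent, although the same replicate numbers recur on each day. At D2, D4 and D6 the differences were -10.8, -14.8 and -22.1 nt in replicate 1 and -26.9, -27.4 and -28.6 nt in replicate 2. In replicate 3 they were -26.9, -27.35 and -21.9 nt. Gm12184 differed from Cdk2ap1 by -16.8 ± 14.0 nt and was shorter in 8 of 9 libraries (exact p = 0.0078, adjusted 0.0234). It shared 95.9% of its 21-base words with Cdk2ap1, and 97.8% of its 178 D0 reads had a mapping quality under 10. The split of reads between Gm12184 and Cdk2ap1 is therefore uncertain. In the 5 libraries with at least 30 reads of both, the mean difference was -16.3 nt and the exact p was 0.0625, the smallest that 5 libraries allow. For the 4 pairs within a gene the differences were -2.63 ± 7.26 nt for the Hspa8 contigs, -3.28 ± 14.3 nt for Rpl7a in 7 libraries, 2.86 ± 7.91 nt for Rpl24 and -3.49 ± 18.3 nt for Map2k2, with adjusted exact p-values from 0.475 to 0.586. The Hspa8 mean averages over a change of sign, since ENSMUST00000117557 was longer than ENSMUST00000015800 in the 3 D2 libraries (by 9.06, 6.04 and 0.875 nt) and shorter in the 6 libraries of D4 and D6. Gm3839 was 17.0 ± 12.4 nt shorter than Gapdh (mean difference -17.0 nt) in the 5 libraries with enough reads and was not tested.

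The share of reads that fell on Gm10260 rather than the main Rps18 contig moved with the replicate number. Gm10260 took 19.6% to 22.4% of the reads of both in replicate 1, 43.5% to 47.3% in replicate 2 and 23.9% to 26.6% in replicate 3 over the 4 days. At D0 the shares were 21.6%, 45.7% and 26.1%, with Wilson 95% intervals of 19.9% to 23.4%, 44.0% to 47.4% and 24.4% to 27.9% that cover counting error only. With all Rps18 contigs counted, the shares were 18.96% to 21.5%, 40.5% to 44.4% and 22.2% to 25.3%. Gm12184 also took its highest share in replicate 2 on each of 4 days, from 32.2% to 51.5%, against 14.2% to 30.2% in replicate 1 and 21.9% to 31.7% in replicate 3. Replicates 1 to 3 carried the same 3 adapter barcodes on each day, and the part of the barcode in these shares was not tested. With the reads of Gm10260 and this Rps18 contig pooled, the tails were 89.5, 95.1 and 97.6 nt at D0 and 74.8, 74.0 and 76.0 nt at D6, which shows that the pair as a whole was shorter. Rps18 alone had 91.7, 108 and 105 nt at D0 and 80.1, 88.4 and 82.8 nt at D6.

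**Figure D3:**
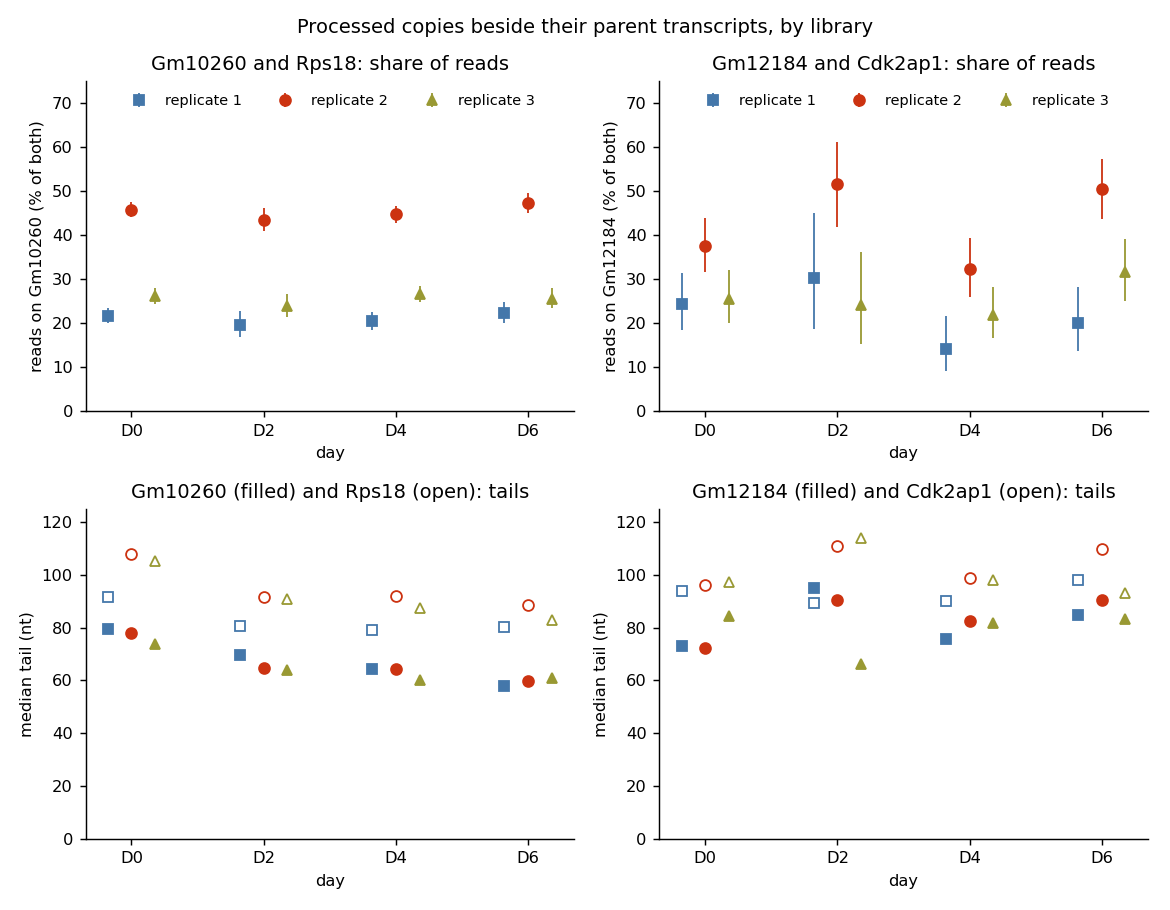
Share of the reads of a pair that fell on the predicted gene (percent, with Wilson 95% intervals) and median tail (nt) of the predicted gene and its relative, for Gm10260 with Rps18 and Gm12184 with Cdk2ap1, by day and replicate. Replicate 2 has the highest share on each of the 4 days in both pairs, and Gm10260 has shorter tails than Rps18 in every library.

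Abundance was a separate readout that the rule did not use beyond its minimum of 100 D0 reads. Reads were tallied per contig and compared with D0 by limma-voom over 12 libraries. At D2, 5 of the 24 members passed an adjusted p of 0.05 (1 higher and 4 lower), where 16.9% of all contigs with 100 D0 reads did, 3.58% being higher and 13.4% lower. At D4 there were 10 (3 higher and 7 lower), against 39.4% of all (12.4% higher and 27.0% lower). At D6 there were 11 (4 higher and 7 lower), against 52.4% (10.9% higher and 41.5% lower). Among all 12356 contigs fitted, which include rarer ones, 7.22%, 20.3% and 29.6% passed at D2, D4 and D6. The median log2 fold change of the members was -0.01, -0.18 and -0.23 at D2, D4 and D6, and that of all 2149 contigs -0.14, -0.15 and -0.35. With reads of mapping quality 10 or more alone, 19 members could be fitted and 3, 3 and 7 passed at D2, D4 and D6, of which 1, 2 and 5 were higher and 2, 1 and 2 lower, so the split turned at D4 and D6. With at least 200 reads as the minimum, 22 members could be fitted and 7 were higher and 4 lower at D6. Scaling by library totals raised the median of all contigs fitted by 0.16, 0.09 and 0.24 on the log2 scale and turned the D6 split to 7 higher and 4 lower, so directions are relative to the reads, the filter and the scaling. Without D2 replicate 3, 0 members passed at D2.

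Vim rose by far the most. It had 373, 397 and 376 scaled RPM (with the scaling factors of the fit) in D0 replicates 1 to 3 and 448, 516 and 482 at D2, a difference that did not pass (log2 fold change 0.35, adjusted p = 0.148 by limma). At D4 it had 1749, 1966 and 1603 and at D6 1883, 1919 and 1676, all above every D0 library. The log2 fold change was 2.21 at D4 and 2.25 at D6 (SE 0.11 each), or 4.77-fold at D6. The D2 libraries also lay above D0 without overlap, both in scaled RPM and in tail length.

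Hspa8 ENSMUST00000015800 rose on each day, with log2 fold changes of 0.49, 0.45 and 0.36 (adjusted p = 0.0021, 0.00039 and 0.0034 by limma). It had 1443, 1729 and 1527 scaled RPM at D0, 2224, 2064 and 2357 at D2, 2296, 2480 and 1786 at D4 and 2397, 1768 and 2050 at D6. The later libraries lay above D0 on each day. Hspa8 ENSMUST00000117557 fell at D4 (-0.72, adjusted p = 0.00079), from 836, 577 and 595 scaled RPM to 370, 332 and 491, and did not pass at D2 (0.13) or D6 (-0.28). With the reads of all Hspa8 contigs summed, the change was 0.37 at D2 (adjusted p = 0.00099) and did not pass at D4 (0.17, adjusted p = 0.0911) or D6 (0.18, adjusted p = 0.0546). Of the 36 chaperone contigs, 2, 5 and 3 rose and 9, 19 and 19 fell at D2, D4 and D6, and the median of their log2 fold changes was -0.22, -0.33 and -0.47. Over all contigs with 100 D0 reads, 3.58%, 12.4% and 10.9% rose and 13.4%, 27.0% and 41.5% fell, with medians of -0.14, -0.15 and -0.35. Ppib passed at D4 alone (0.36, adjusted p = 0.0485 by limma) and did not pass there with a replicate block (adjusted p = 0.0731).

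Gm20594 and Tbcb were the remaining members that were higher at D6. Gm20594 fell at D2 (-1.35, SE 0.35, adjusted p = 0.0082 by limma), from 129, 88.4 and 91.2 scaled RPM to 33.8, 42.0 and 32.9, and was higher at D6 with 157, 186 and 161 (0.76, SE 0.19, adjusted p = 0.0015). Its D6 libraries were all above and its D2 libraries all below D0, on 4 to 10 reads per library at D2. Tbcb had 124, 95.9 and 97.7 at D0 and 160, 153 and 141 at D6 (0.53, SE 0.18, adjusted p = 0.0222).

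The members that were lower at D6 were Nudt14 (-2.59), Gm3839 (-2.06), Serbp1 (-1.94), Ccnd3 (-1.91), Rpl7a (-0.86), Psmb7 (-0.42) and Rpl24 (-0.41). Nudt14 had 87.7, 80.9 and 73.8 scaled RPM at D0 and 3.7, 19.7 and 14.4 at D6, and it was lower on each day. With all Nudt14 contigs summed it did not pass at D2 (-0.94, adjusted p = 0.0604 by limma). Gm3839 had 105, 137 and 95.6 at D0 and 14.9, 48.2 and 17.2 at D6. Serbp1 had 46.3, 84.6 and 80.4 at D0 and 18.6, 26.3 and 8.6 at D6. Neither overlapped between the days. Ccnd3, a driver of the G1 phase, had 65.8, 99.7 and 109 at D0 and 33.6, 15.3 and 28.7 at D6, while 17 of 30 contigs of the cell cycle and mitosis list fell and 0 rose at D6, where 41.5% of all contigs with 100 D0 reads fell and 10.9% rose. Rpl7a and Rpl24 went with their list, in which 140 of 163 ribosomal protein contigs fell and 1 rose at D6, against the same 41.5% and 10.9%. Summed over all contigs of the gene, Rpl7a had a log2 fold change of -0.56 and Rpl24 of -0.26 at D6, and whether the minor contigs differed from their genes was not tested. The Rpl24 contig did not pass at D6 with a replicate block (adjusted p = 0.0839 by limma). With reads of mapping quality 10 or more alone, which left 17 of its 289 D0 reads, it turned to 0.37 at D4 and 1.26 at D6. Of the D0 reads of the Rpl7a and Rpl24 contigs, 97.9% and 94.1% had a mapping quality under 10. Psmb7 had 617, 589 and 589 at D0 and 526, 440 and 394 at D6, when 17 of 40 proteasome contigs fell and 0 rose, the share over all contigs with 100 D0 reads being 41.5% lower and 10.9% higher.

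At D2 the lower members were Rnd2 (-1.61), Nudt14 (-1.36), Gm20594 and Slc25a5 (-0.53). Slc25a5 had 843, 696 and 730 scaled RPM at D0, 516, 579 and 449 at D2 and 794, 683 and 742 at D6, so that its D2 libraries were all below D0 and its D6 libraries overlapped it. Rnd2 had 107, 64.0 and 86.9 at D0, 33.8, 37.8 and 11.0 at D2, 17.2, 22.5 and 16.9 at D4 (log2 fold change -2.04) and 55.9, 52.6 and 74.7 at D6, where it did not pass (-0.45, adjusted p = 0.176 by limma). With all Rnd2 contigs summed, it was lower at D6 as well (-0.55, adjusted p = 0.0011 by limma), and 95.8% of the D0 reads of the member contig had a mapping quality under 10. Without D2 replicate 3, which leaves 2 libraries at D2, the log2 fold changes at D2 were -1.12 for Rnd2, -1.20 for Nudt14, -1.30 for Gm20594, -0.47 for Slc25a5 and 0.41 for Hspa8 ENSMUST00000015800, with adjusted p-values of 0.0524 to 0.126 by limma. Without D2 replicate 2, 3 members passed. Gm10260 had 1148, 2797 and 1438 scaled RPM at D0 and 1007, 1908 and 1021 at D6 and passed on no day (-0.39 at D6, SE 0.22, adjusted p = 0.166), in a fit whose spread includes the dependence on replicate number. With a replicate block it was lower at D6 (-0.46, SE 0.09, adjusted p = 7.65e-05 by limma), and all 3 same-numbered differences were negative. A total of 9 members passed on no day, 2 passed on all 3 days (Nudt14 and Hspa8 ENSMUST00000015800) and 15 passed on at least 1.

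**Figure D4:**
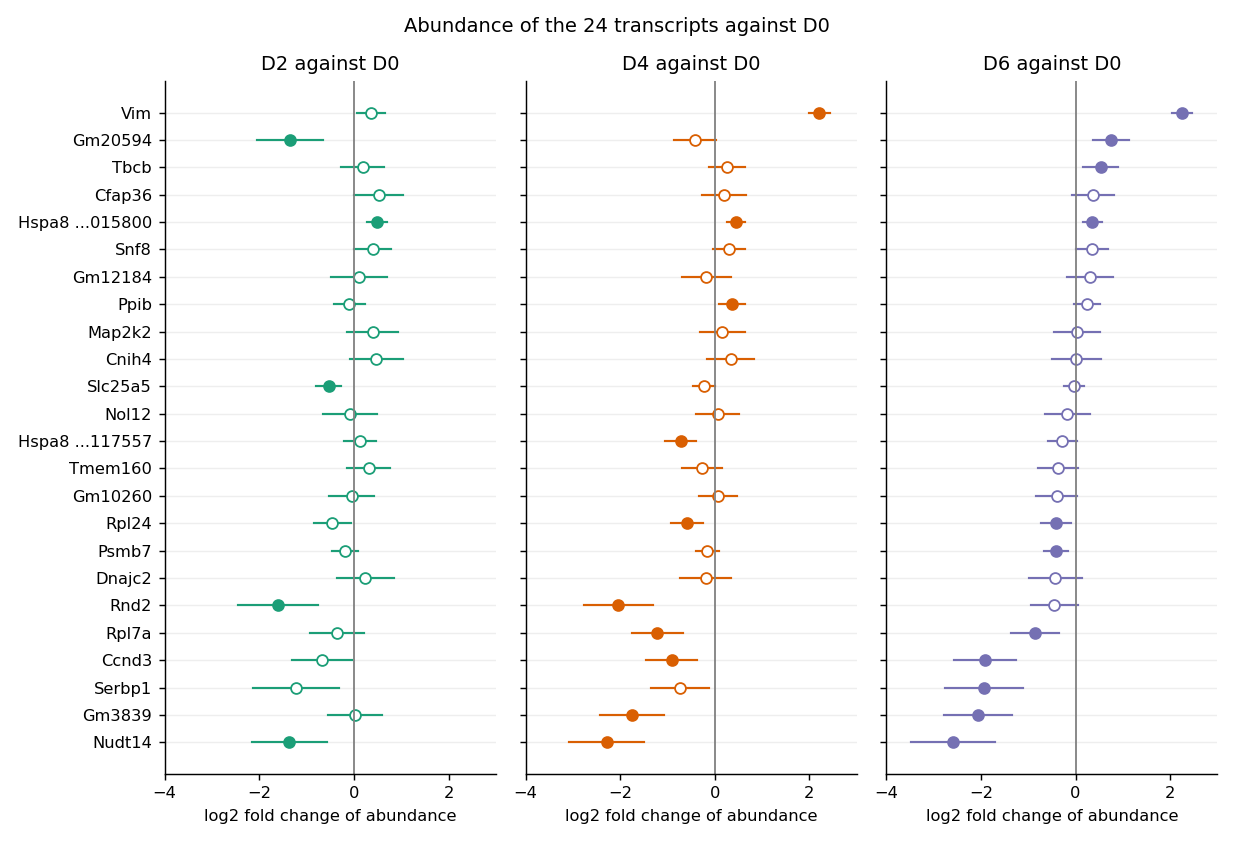
Log2 fold change of read abundance against D0 (horizontal axis, with limma 95% confidence intervals) of the 24 members at D2, D4 and D6. Filled points passed an adjusted p of 0.05, and Vim at D4 and D6 (2.21 and 2.25) stands apart on the right, with Nudt14, Gm3839, Serbp1 and Ccnd3 on the left at D6.

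Features that the rule did not use varied among the members. Their mean mapping quality was 22.4 at the median against 50.5 in the other contigs with 100 D0 reads, and it ran from 0 to 59.9 and was under 30 in 13 of 24 (54.2%) against 33.5%. Their annotated length was 449 to 3721 bases, with a median of 1376 against 1883, and the read rate was 111.56 nt per second at the median in both. When D0 reads were pooled by gene symbol, 18 of 2277 genes with 100 reads had a median of 80 nt or less, and 14 of the 18 held a member contig. The others were Fkbp2, Eif2b4, Ggnbp2 and Dynlt1f.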

How the data were processed

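Direct RNA reads of 12 libraries were taken from 1 per-read table. Guppy was the base caller of the authors, Minimap2 2.20 their aligner (mm10 transcripts of GENCODE vM17), Nanopolish their tail caller and Deeplexicon their demultiplexer. Tail lengths are in nucleotides and not normalized. The authors' mapping quality is a score per read and the authors' barcode confidence a fraction per read. A second deposited table holds log2 fold changes and p-values of the authors' DESeq2 fit and was not used.

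Of 6306434 lines, 69 were malformed and 289260 had no barcode. Of 6017105 assigned lines, those tagged PASS, of class mRNA, not named as pseudogenes and not mitochondrial were kept, 4274320 reads in all (120326 to 613756 per library). Depth limited tails most at D2. Libraries were grouped by their sample labels, since the D0 run names also carry a D2 mark. The 12 libraries came from 13 runs, each of 1 day.

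Reads were tallied per contig. Contigs with at least 30 reads over the 12 libraries were fitted with limma-voom (limma 3.58.1, R 4.3.3) with day as the sole term, after scaling by a trimmed mean of log ratios (30% and 5% trimmed) and a pseudocount of 0.5 reads. limma-voom was used because the tallies were made here from single reads. Tails were compared among D2, D4 and D6 by limma on log2 library medians weighted by reads, for contigs with at least 10 reads in each of 9 libraries. P-values measure the spread between biological replicates and were adjusted by Benjamini-Hochberg over all contigs fitted, with a threshold of 0.05. Tails were not tested against D0. The scripts were tested on simulated data. Python 3.11.15, numpy 2.4.6, pandas 2.3.3, scipy 1.17.1 and matplotlib 3.10.9 were used.

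Windows and annotations came from GENCODE vM21 (mm10), in which 2127 of the 2149 contigs, and all 24 members, were found by transcript identifier. The members and the gene lists were chosen with earlier results of these data known. All 24 members are named, with values by library for most of those with the shortest tails, the most reads, the largest changes or 2 contigs per gene and pooled medians for the others. The alternatives were other limits of the rule, reads of mapping quality 10 or more, 1 line per read, other scalings and filters, leaving out each library and a replicate block. Replicate numbers were taken to follow the barcode numbers, which the sample titles do not state. Between days, same-numbered libraries deviated from their day means with correlations of -0.25 to 0.24 in abundance and 0.02 to 0.14 in tails. Differently numbered libraries had correlations of -0.29 to 0.30 in abundance and -0.13 to 0.007 in tails. Same-numbered tails thus deviated together, though weakly. The main fits did not pair samples by number, and a fit with a replicate block was run beside them.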

Additional observations from a re-analysis of the deposited data

How the results depend on the processing

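The number of contigs chosen was 5 with a limit of 70 nt, 187 with 90 nt, 9 with at least 200 D0 reads, 51 with the geometric mean in place of the median and 16 with reads of mapping quality 10 or more (11 of the 24 among them), and it ranged from 13 to 23 when a D0 library was left out. Of the list of chaperones and folding factors, 2 contigs were chosen at mapping quality 10 or more, 1 at 70 nt, 11 at 90 nt and 2 to 4 without a D0 library. A polyadenylation signal stood in 40% of the windows at 70 nt (2 of 5), 81.5% at 90 nt, 77.8% with at least 200 reads, 68.8% at mapping quality 10 or more, 70.6% with the geometric mean and 69.6% to 76.9% without a D0 library. Members that passed in abundance at D2 numbered 8 with a minimum of 1 read, 3 at mapping quality 10 or more, 8 when reads were summed per gene (7 at D4 and 12 at D6), and 0 to 5 when a library was left out. At D4 they numbered 3 at mapping quality 10 or more and 8 to 10 when a library was left out, and at D6 7 and 8 to 11. Rpl24 reversed at mapping quality 10 or more (0.37 at D4 and 1.26 at D6), on 17 D0 reads. The alternatives on genes, lists, signals, pairs and read shares were chosen after seeing the data. With a replicate block, 5, 9 and 11 members passed in abundance at D2, D4 and D6 (Ppib was lost at D4, and at D6 Rpl24 was lost and Gm10260 gained), and 1, Slc25a5, passed in tail length at D4 against D2 where 0 had. Without any 1 library, 0 members passed in tail length. The median tail difference from D0, with the choice repeated and the library left out as D0, was -7.20 to 1.04 nt at D2 (-1.27 and -7.20 without replicates 2 and 3), -5.88 to 4.12 nt at D4 (0.002 and -5.88) and 1.12 to 9.23 nt at D6 (1.12 and 1.30). Gm12184 against Cdk2ap1 differed by -16.3 nt with at least 30 reads per library, where the exact p of 0.0625 is the smallest that 5 libraries allow. In all, 115 of the summary values kept their direction and size, 23 moved and 3 reversed. Reads per library, down to 1 for Serbp1 at D2, limit the later tails of the rarer members.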

Other observations

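The dependence on the replicate number was not general among contigs. Of the 24 members, 4 (Gm10260, Gm12184, Gm3839 and Vim) had their highest scaled reads in replicate 2 on all 4 days, against 33 of the other contigs with 100 D0 reads (1.55%). Psmb7 was highest in replicate 1 on all 4 days, as were 37 other contigs (1.74%), and 0 members were highest in replicate 3, as were 24 others (1.13%). The excess of replicate 2 over the other replicates was 0.90 on the log2 scale at the median of the 4 members with a run of 8 or more A before the read end, 0.04 in the 52 other contigs with such a run and 0.06 in the 20 members without one. Replicate 2 was highest on all 4 days in 6 of those 52 contigs and in 27 of the 2051 other contigs without such a run. Of the reads of Gm3839 and all Gapdh contigs, Gm3839 took 0.95% to 2.52% in replicate 2, 0.31% to 0.98% in replicate 1 and 0.57% to 1.81% in replicate 3, and replicate 2 was highest on 4 of 4 days. Against the closest Gapdh contig alone it was highest on 2 of 4 days. Replicate numbers were taken to follow the barcode numbers, which the sample titles do not state, and the part of the barcode was not tested.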
